A study of Homo sapiens with 6 samples.

Results

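Mitosis genes were examined as a list of 39 named genes that act in G2, on the spindle, at the kinetochore or in cytokinesis. The list was set by gene name with no cut on measured values, but with earlier results of these data known. All 39 were found among the 19198 genes of the deposited table. RNA-Seq had been carried out on MCF10A, an established line of immortalized, non-malignant mammary epithelial cells, in 6 samples. The 3 control samples (labelled MCF10A) were grown in medium with 5% horse serum, insulin at 10 μg/ml, EGF at 20 ng/ml, cholera toxin at 100 ng/ml and hydrocortisone at 0.5 μg/ml. The 3 growth factor-depleted samples (labelled MCF10A_-gf) had the same medium and serum with these 4 additives left out, so that serum was present in every sample. The titles number 3 replicates in each condition, whereas the design text of the deposit speaks of 2 replicates in a total of 6 samples. Cells of both conditions were taken at the same stated confluence, and the day of harvest is not given. One cell line stands behind all samples, and nothing in the labels says whether same-condition replicates were separate cultures, so the p-values below measure only the spread between these samples.

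Entry into mitosis is driven by CDK1 bound to cyclins A and B, after which Aurora and Polo-like kinases build the spindle, condensin and topoisomerase II compact the chromosomes, and the spindle checkpoint holds back the anaphase-promoting complex until every kinetochore is attached. A mammary epithelial cell that stops dividing loses most of these transcripts, because the genes are transcribed in a wave in G2 and M and are repressed in resting cells. Much of that wave is known to run through a short promoter element, the cell cycle genes homology region (CHR), often found downstream of CCAAT boxes. The CHR is bound by the DREAM complex in resting cells and by B-MYB and FOXM1 with MuvB in dividing ones, while CCAAT boxes bind NF-Y. In whole-culture RNA such as this, fewer dividing cells and less mitotic mRNA in each dividing cell cannot be told apart.

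Promoters of CCNB1, CCNB2, CDK1 and PLK1 are shown because these genes are textbook examples of CHR control. Each line gives 150 bases of RefSeq promoter (GRCh38.p14, plus strand for all 4), from 120 bases before the transcription start to 30 from the start onwards. Capitals mark matches to the CHR, searched as TTTGAA or TTTAAA, and to the CCAAT box, searched as CCAAT, on both strands. In these 4 windows no match of one motif overlapped a match of the other, whereas in the promoters of CDCA8 and MKI67 a CHR and a CCAAT match shared bases.
CCNB1 (chr5:69167030-69167179): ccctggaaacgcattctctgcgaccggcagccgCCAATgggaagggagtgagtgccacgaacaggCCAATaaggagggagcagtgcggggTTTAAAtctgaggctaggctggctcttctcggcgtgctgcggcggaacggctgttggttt
CCNB2 (chr15:59105026-59105175): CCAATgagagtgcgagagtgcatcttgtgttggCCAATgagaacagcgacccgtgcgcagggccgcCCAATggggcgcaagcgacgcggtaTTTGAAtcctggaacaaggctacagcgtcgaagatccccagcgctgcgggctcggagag
CDK1 (chr10:60778358-60778507): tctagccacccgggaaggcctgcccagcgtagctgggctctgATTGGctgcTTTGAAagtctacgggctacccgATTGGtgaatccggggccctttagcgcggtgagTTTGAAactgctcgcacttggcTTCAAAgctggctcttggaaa
PLK1 (chr16:23678769-23678918): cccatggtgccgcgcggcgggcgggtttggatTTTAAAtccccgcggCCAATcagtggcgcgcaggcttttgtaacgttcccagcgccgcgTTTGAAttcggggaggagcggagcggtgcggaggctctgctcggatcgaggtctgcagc
In CCNB1, a CHR match began 30 bases before the start and CCAAT matches began 87 and 55 bases before it. CCNB2 had the same arrangement, with a CHR match at 29 bases and CCAAT matches at 120, 87 and 54 bases before the start. PLK1 had CHR matches at 88 and 29 bases before the start with a CCAAT match at 73. In CDK1 the CHR matches began 69 and 13 bases before the start and 9 bases after it, with CCAAT matches at 78 and 46 bases before it.

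RefSeq promoters of 300 bases were matched by symbol to 34 of the 39 mitosis genes, through 39 promoters since some genes have more than one. A CHR match stood in 33 of the 39 (84.6%), against 24.0% of all 35116 promoters in the table and 20.2% of the 22199 promoters of protein-coding genes. Within 50 bases of the start on either side, 26 of the 39 (66.7%) held a CHR match, against 7.62% of all promoters. A CCAAT match was present in 27 of the 39 (69.2%), against 34.6% of all promoters, and 17 (43.6%) held at least 2 of them, against 10.8%. Both motifs together were found in 23 of the 39 (59.0%), against 9.27% of all promoters. These are matches of letters and no binding was measured. Promoters of AURKA, TPX2, BIRC5, TTK and UBE2C were not analysed here.

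**Figure D1:**
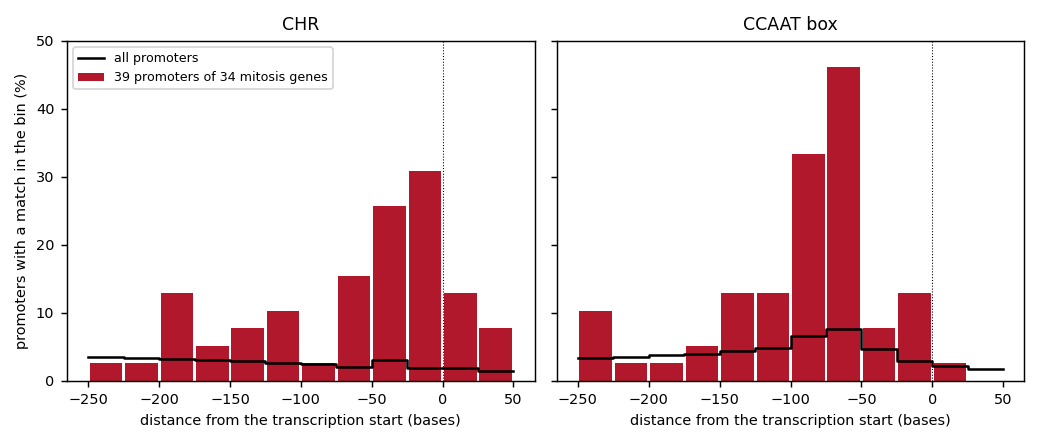
Share of promoters (%) with a CHR match (left) or a CCAAT match (right) beginning in each 25-base bin, by distance from the transcription start in bases. Bars are the 39 promoters of 34 mitosis genes and the black line is all 35116 promoters; CHR matches of the mitosis genes are most frequent in the bin just before the start (30.8% against 1.87%) and CCAAT matches between 75 and 50 bases before it (46.2% against 7.62%).

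The libraries held between 7472418 and 28672630 reads on genes, and no mitosis gene had fewer than 37 reads in any sample. Exons of 3 of the genes (BUB1B, CENPA and NUSAP1) overlap those of another gene of the deposited table on the same strand. Exons of 10 overlap one on the opposite strand. The strand setting of the counting and its handling of overlaps are not given, so the counts of these genes may be affected. One library stood apart from its group in these genes. In control replicate 3 the mitosis genes lay at a median of 36.7% of the mean of the other control samples, whereas over all 16988 genes tested its median was 95.6%. For control replicates 1 and 2 the same measure was 139% and 150%, and for depleted replicates 1 to 3 it was 152%, 94.3% and 65.7%. Control replicate 3 was the lowest control for 35 of the 39 genes, and it lay below every depleted sample for 12 of them, within the depleted range for 22 and above every depleted sample for 5. In markers of fibroblasts, which separated the conditions strongly, the same library sat with the other controls. In some luminal and basal markers it did not, as given below. Fold changes are therefore given with and without control replicate 3, which was singled out after its values had been seen.

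Without growth factors, 38 of the 39 mitosis genes had a lower mean log2 level, by a median log2 fold change of -0.76, where the median of all 16988 genes tested was -0.03 and 51.9% of them were lower. The changes ran from -1.57 for HMMR to 0.09 for KIF23, and 7 genes were lower by at least 2-fold. None passed the test. A gene was called when the Benjamini-Hochberg adjusted p of limma over all genes was under 0.05 and the change was at least 2-fold, and by this rule 0 of the 39 were called lower, against 1.97% of all genes, and 0 higher, against 4.36%. The smallest adjusted p was 0.107, for HMMR. At an unadjusted p under 0.05, 7 of the 39 were lower (HMMR, CENPE, SMC4, CCNB2, ASPM, TTK and CENPF), against 8.62% of all genes. edgeR on the recovered reads called 0 of the 39 lower (1.7% of all genes), and DESeq2 called HMMR alone (4.86% of all genes). Every depleted sample lay below every control sample in 5 genes, CENPE, CENPF, HMMR, ASPM and SMC4, which is close to the 12.1% of all genes with that pattern. For a single gene, an exact two-sided permutation test with 3 samples on each side cannot reach a p below 0.1.

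With control replicate 3 left out, limma called 19 of the 39 lower, against 6.49% of all genes, with adjusted p from 0.00554 to 0.0490, and all 39 had a lower mean. Those called were CDK1, CCNA2, CCNB1, CCNB2, AURKA, TPX2, BUB1B, TTK, MAD2L1, CDC20, NDC80, KIF11, KIF2C, NUSAP1, HMMR, DLGAP5, NCAPG, SMC2 and ANLN. The median log2 fold change was then -1.13, against -0.03 for all genes. In 35 of the 39 every depleted sample lay below control replicates 1 and 2, a pattern shown by 26.9% of all genes. Leaving out any of the other 5 samples gave 0 calls, with a median log2 fold change between -0.95 and -0.48. The share of all genes called lower in those fits is not given here. Over all genes, too, fewer were called without control replicate 1 or 2 or depleted replicate 2 or 3 than with all 6 samples. Among these limma fits, mitosis genes were called only without control replicate 3, and its removal was 1 of 6 such fits.

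**Figure D2:**
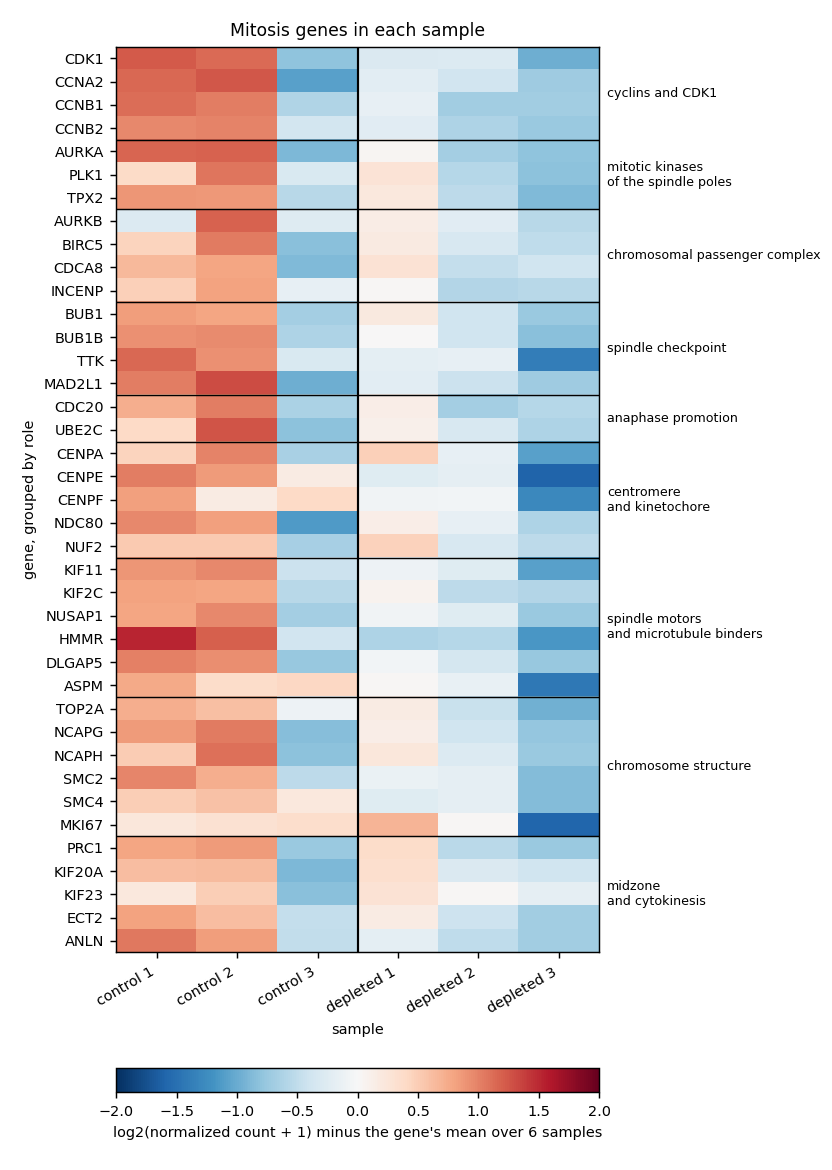
Level of each mitosis gene in each sample, as log2(normalized count + 1) minus the gene's mean over the 6 samples (colour, red higher and blue lower), with genes grouped by role. Control replicates 1 and 2 are red in nearly every row, control replicate 3 is blue in most rows, and depleted replicate 3 holds the lowest value of 25 genes.

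The summed normalized counts of the 39 genes made up 0.530% and 0.550% of all normalized counts in control replicates 1 and 2 and 0.303% in control replicate 3. In depleted replicates 1 to 3 the share was 0.363%, 0.273% and 0.179%. The depleted samples were thus not alike, and depleted replicate 1 held more mitotic mRNA than control replicate 3. Among the depleted samples, replicate 1 was the highest for 33 genes and replicate 3 the lowest for 36, and 30 genes ran in the order replicate 1, 2, 3, which is a description of these libraries only.
Compared per kilobase of transcript, mitosis genes differed widely in level. ANLN was the most abundant, at 1934 normalized counts per kilobase with growth factors and 927 without, followed with growth factors by CCNB1 (1474 and 645), TOP2A (1180.0 and 683) and CDK1 (1070.4 and 452). NCAPH was the least abundant, at 74.4 and 46.7. The median gene had 404 normalized counts per kilobase with growth factors and 245 without.

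The cyclins and CDK1 were lower in the mean in all 4 genes, by a median log2 fold change of -1.03, none of them called, and all 4 were called lower without control replicate 3 (median -1.61). CDK1 (chr10:60778331-60794852 on hg38), the kinase that starts mitosis, was measured at 2785, 2604 and 678 normalized counts in control replicates 1 to 3 and 975, 985 and 604 in depleted replicates 1 to 3. Control replicate 3 fell inside the depleted range, so the groups overlapped. The log2 fold change was -1.03 (95% interval -2.26 to 0.20, adjusted p by limma = 0.345), or -1.69 without control replicate 3 (adjusted p by limma = 0.0132).
CCNB1 (chr5:69167135-69178245), the main cyclin partner of CDK1, stood at 3998, 3758 and 1215 with growth factors and 1651, 1139 and 1138 without, again with control replicate 3 inside the depleted range. Its log2 fold change was -1.03 (95% interval -2.10 to 0.04, adjusted p by limma = 0.271), and -1.59 without that control. CCNB2 (chr15:59105126-59125045), the B-type cyclin of the Golgi, had 1328, 1359.8 and 526 against 584, 445 and 409 and a log2 change of -1.05 at an adjusted limma p of 0.193, or -1.50 without control replicate 3.
Cyclin A2, which acts in S phase as well as in G2, was the cyclin in which control replicate 3 was lowest. CCNA2 (chr4:121816444-121823883) had 2104, 2239 and 448 normalized counts in the controls and 816, 728 and 577 in the depleted samples, so that 1 control lay below all depleted samples while the other 2 were well above them. Its log2 fold change was -0.87 (adjusted p by limma = 0.472) and -1.63 without that control (adjusted p by limma = 0.0089).

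The kinases of the spindle poles and their activator TPX2 followed the cyclins, at a median log2 change of -0.79 (-1.27 without control replicate 3). AURKA (chr20:56369389-56392337), which matures the centrosomes, had 1336, 1349 and 317 normalized counts in the controls and 607, 370.4 and 339.9 after depletion. Here too control replicate 3 was the lowest of all samples. The log2 fold change was -0.97 (95% interval -2.26 to 0.33, adjusted p by limma = 0.404) and -1.66 without control replicate 3 (adjusted p by limma = 0.0172).
TPX2, which carries Aurora A to spindle microtubules, had a log2 fold change of -0.79, or -1.27 and called lower without control replicate 3. PLK1 (chr16:23677656-23690367), the kinase needed for spindle assembly and mitotic exit, stood at 894, 1438 and 556 in the controls and 827, 460.3 and 387 in the depleted samples. Depleted replicate 1 came close to control replicate 1, and the log2 fold change of -0.76 (95% interval -1.74 to 0.23), or -1.10 without control replicate 3, was not called in either fit (adjusted p by limma = 0.387 with all samples and 0.102 without that library).

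Genes of the chromosomal passenger complex, which corrects faulty attachments and later guides cytokinesis, had a median log2 change of -0.43 with all samples and -0.94 without control replicate 3, and no call in either fit. AURKB (chr17:8204733-8210600), its kinase, had 169, 464 and 170.2 normalized counts in the controls and 226, 174 and 139 after depletion. Control replicate 2 alone was high, and control replicates 1 and 3 lay inside the depleted range, and the log2 fold change was -0.43 (adjusted p by limma = 0.689), -0.67 without control replicate 3 and 0.054 without control replicate 2. INCENP (chr11:62123998-62153169), the scaffold, stood at 849.7, 1063 and 545 against 624, 407 and 416, a log2 fold change of -0.74 (95% interval -1.53 to 0.05, adjusted p by limma = 0.283), or -1.01 without control replicate 3.
BIRC5 (survivin) and CDCA8 (borealin), which tether the complex to chromosomes, had log2 fold changes of -0.43 and -0.38, which became -0.96 and -0.92 without control replicate 3, and in both genes control replicate 3 was the lowest of the 6 samples.

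Spindle checkpoint genes were lower in the mean in all 4 cases, by a median log2 fold change of -0.86, and 3 of the 4 were called lower without control replicate 3. BUB1 (chr2:110637528-110678063), a kinetochore kinase of the checkpoint, had 1521, 1479 and 531 normalized counts in the controls and 978, 646 and 512 after depletion, with control replicate 3 near the bottom of the depleted range. Its log2 fold change was -0.63 (95% interval -1.68 to 0.42), or -1.13 without control replicate 3, and its adjusted p by limma was 0.519 with all samples and 0.0535 without that control, just short of the threshold. The checkpoint proteins BUB1B (BubR1) and MAD2L1 (Mad2), which bind CDC20, had log2 fold changes of -0.82 and -0.90, or -1.33 and -1.61 without it.
TTK (Mps1), the kinase that starts the checkpoint signal, had the largest difference of the group with all samples. It stood at 1301, 1104 and 475 in the controls and 513, 523 and 226 in the depleted samples, with control replicate 3 below depleted replicates 1 and 2. The log2 fold change was -1.16 (95% interval -2.27 to -0.06, adjusted p by limma = 0.222), and -1.61 without that control (adjusted p by limma = 0.0415).

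Of the genes that drive anaphase, CDC20 (chr1:43358981-43363203), the activator of the anaphase-promoting complex that the checkpoint restrains, had 1249, 1528 and 483 normalized counts in the controls and 829, 469 and 505 after depletion. Control replicate 3 was among the depleted samples and the other controls were above them. The log2 fold change was -0.74 (95% interval -1.80 to 0.32, adjusted p by limma = 0.436), or -1.25 without control replicate 3 (adjusted p by limma = 0.0406). UBE2C, the ubiquitin-conjugating enzyme of the same complex, had a log2 fold change of -0.56 (-1.11 without control replicate 3) and was not called in either fit.

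The centromere and kinetochore genes were split by how control replicate 3 behaved. CENPF (chr1:214603185-214664574), a large kinetochore protein that accumulates in G2, had 7984, 5072 and 5967 normalized counts in the controls and 4295, 4354 and 1851 after depletion, and CENPE, the kinesin that moves chromosomes to the spindle equator, had 1969, 1752 and 1083 and 818, 859 and 318. In both genes every depleted sample lay below every control and control replicate 3 kept 91.4% and 58.2% of the mean of the other controls. Their log2 fold changes were -0.93 for CENPF (95% interval -1.86 to -0.01, adjusted p by limma = 0.244) and -1.35 for CENPE (95% interval -2.36 to -0.35, adjusted p by limma = 0.121), and -0.97 and -1.61 without that control, with no call.
In contrast, NDC80 and NUF2, partners in the complex that grips microtubules, and CENPA, the histone that marks the centromere, had log2 fold changes of -0.43, -0.26 and -0.52, which became -1.11, -0.65 and -0.97 without control replicate 3. Control replicate 3 kept 24.6%, 43.7% and 38.1% of the other controls in these genes. NDC80 was the only one of the 5 called lower without that library (adjusted p by limma = 0.0445).

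Spindle motors and microtubule binders had a median log2 fold change of -0.86, and 5 of the 6 were called lower without control replicate 3. HMMR, a microtubule-binding protein and hyaluronan receptor, showed the largest difference of all 39 genes, with 2896, 2299 and 769 normalized counts in the controls and 654, 673 and 447 in the depleted samples. Every depleted sample was below every control, and the log2 fold change was -1.57 (standard error 0.49, 95% interval -2.68 to -0.45, adjusted p by limma = 0.107, DESeq2 adjusted p = 0.00772). Without control replicate 3 it was -2.15 (adjusted p by limma = 0.00554).
KIF11 (chr10:92574105-92655395), the motor that pushes the spindle poles apart, stood at 2466, 2608 and 993 with growth factors and 1248, 1137 and 633 without. Control replicate 3 lay between the depleted samples, and the log2 fold change was -0.94 (95% interval -1.96 to 0.07, adjusted p by limma = 0.289), or -1.39 without that control. ASPM, which acts at the spindle poles and is a gene of primary microcephaly, had 4409, 3363 and 3447 against 2653, 2339 and 966, with no overlap between groups, and a log2 fold change of -1.03 (adjusted p by limma = 0.201), or -1.08 without control replicate 3 and not called.
The microtubule depolymerase KIF2C (MCAK) and the spindle assembly proteins NUSAP1 and DLGAP5 (HURP) had log2 fold changes of -0.69, -0.71 and -0.78, or -1.14, -1.23 and -1.36 without control replicate 3.

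Genes of chromosome structure were lower in the mean in all 6 cases, at a median log2 change of -0.74 (-1.07 without control replicate 3). TOP2A (chr17:40388525-40417896), the topoisomerase that untangles sister chromatids, had 8145, 7443 and 4571 normalized counts in the controls and 5517, 3621 and 2529 after depletion. Only depleted replicate 1 exceeded control replicate 3, and the log2 fold change was -0.82 (95% interval -1.70 to 0.07, adjusted p by limma = 0.292), or -1.07 without that control and not called. SMC4, a condensin subunit, stood at 4639.5, 4913 and 3791 against 2778, 2890.2 and 1804 with no overlap, and its log2 fold change of -0.86 had the smallest standard error of the list (0.30, adjusted p by limma = 0.149) and was -0.97 without control replicate 3, not called.
The other condensin genes SMC2, NCAPG and NCAPH had log2 fold changes of -0.78, -0.69 and -0.53, or -1.24, -1.29 and -1.06 without control replicate 3.
MKI67 (chr10:128096659-128126423), the source of the Ki-67 antigen by which dividing cells are counted, departed from the others. It had 3726, 3929 and 4047 normalized counts in the controls, nearly level, and 5067, 3212 and 1058 in the depleted samples, so that depleted replicate 1 was the highest of all 6 samples and depleted replicate 3 the lowest. The log2 fold change of -0.59 (95% interval -1.79 to 0.60, adjusted p by limma = 0.604) was -0.57 without control replicate 3 and 0.049 without depleted replicate 3. With the correction for transcript length and GC content described below, MKI67 stood at -1.02 (adjusted p by limma = 0.282).

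Genes of the spindle midzone and cytokinesis held both the most abundant mitosis gene and the one whose mean was not lower. ANLN (chr7:36389821-36453791), which anchors actin and septins to the contractile ring, had 12455, 10739.8 and 4255 normalized counts in the controls and 5233, 4215 and 3712 after depletion. Control replicate 3 was inside the depleted range, and the log2 fold change was -0.93 (95% interval -1.94 to 0.07, adjusted p by limma = 0.291), or -1.41 without that library (adjusted p by limma = 0.0186).
KIF23 (MKLP1), the kinesin of the centralspindlin complex, had 1442, 1748 and 693 in the controls and 1520.3, 1267 and 1100.1 in the depleted samples. Depleted replicate 1 exceeded control replicate 1, and control replicate 3 was the lowest of all. Its log2 fold change was 0.09 (95% interval -0.77 to 0.96), and -0.31 without control replicate 3. KIF20A (MKLP2), the kinesin that carries the passenger complex to the midzone, was at -0.23 (-0.74 without that control), and PRC1, which bundles midzone microtubules, and ECT2, which activates RhoA at the cleavage furrow, were at -0.61 and -0.63 (-1.13 and -1.03), with no call in either fit.

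**Figure D3:**
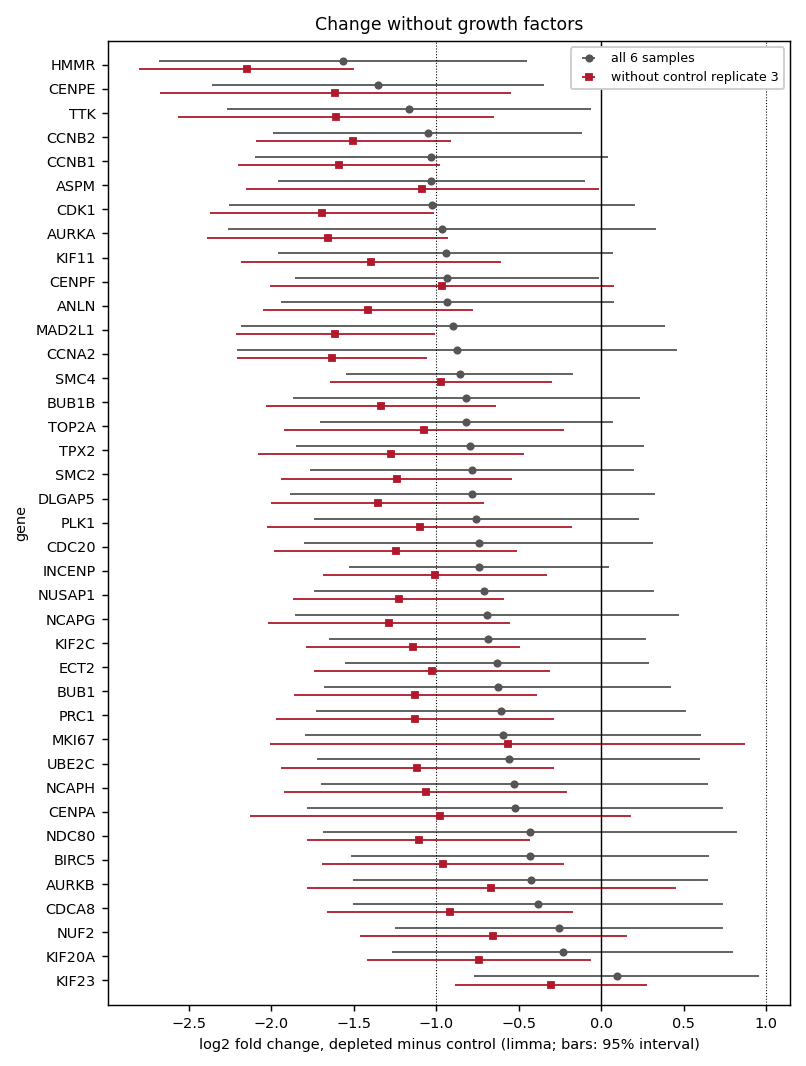
Log2 fold change of each mitosis gene, depleted minus control, by limma with 95% intervals, for all 6 samples (grey circles) and without control replicate 3 (red squares); dotted lines mark a 2-fold change. With all samples 38 of 39 estimates are below 0 and most intervals cross it, and without control replicate 3 the median moves from -0.76 to -1.13.

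The libraries differed in how levels ran with transcript length. Canonical transcripts of the mitosis genes run from short (UBE2C) to very long (MKI67), and the part of length in their values was not tested. Across all genes tested with a transcript, Spearman's correlation between a sample's deviation from the gene mean and transcript length ran from -0.24 in control replicate 2 to 0.20 in depleted replicate 2 and was 0.18 in control replicate 3, as a description with no test, since genes of a library share its preparation. Among the mitosis genes, the 10 with transcripts of at least 5000 bases had a median of 58.4% in control replicate 3 relative to the mean of the other controls, and the 29 shorter ones 34.7%. Not every long gene was high there, since MAD2L1 kept 22.5% and NCAPH 31.8%. The 3 genes in which control replicate 3 kept at least 80% of the other controls, MKI67 (106%), CENPF (91.4%) and ASPM (88.7%), have the 3 longest transcripts of the list. In depleted replicate 3 the median log2 ratio to the other depleted samples was -0.88 for the long genes and -0.57 for the shorter ones. Those other samples include depleted replicate 2, which had the highest correlation with length. The ratio therefore cannot show a length trend of depleted replicate 3 itself.
After each sample's levels had been corrected for transcript length and GC content, an alternative chosen after the data were seen, control replicate 3 was the lowest control for 38 of the 39 genes. The median log2 fold change stayed at -0.76 and 0 genes were called. The order of the samples by their median was kept except that control replicate 3 and depleted replicate 2 became level (-0.42 and -0.43). Single genes moved in both directions, such as MKI67 from -0.59 to -1.02, CDK1 from -1.03 to -0.71 and NUF2 from -0.26 to -0.05. These examples were picked after their values were seen. With the correction and without control replicate 3, 17 of the 39 were called lower. The share of all genes called lower in that fit is not given here, so this count has no background beside it.

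**Figure D4:**
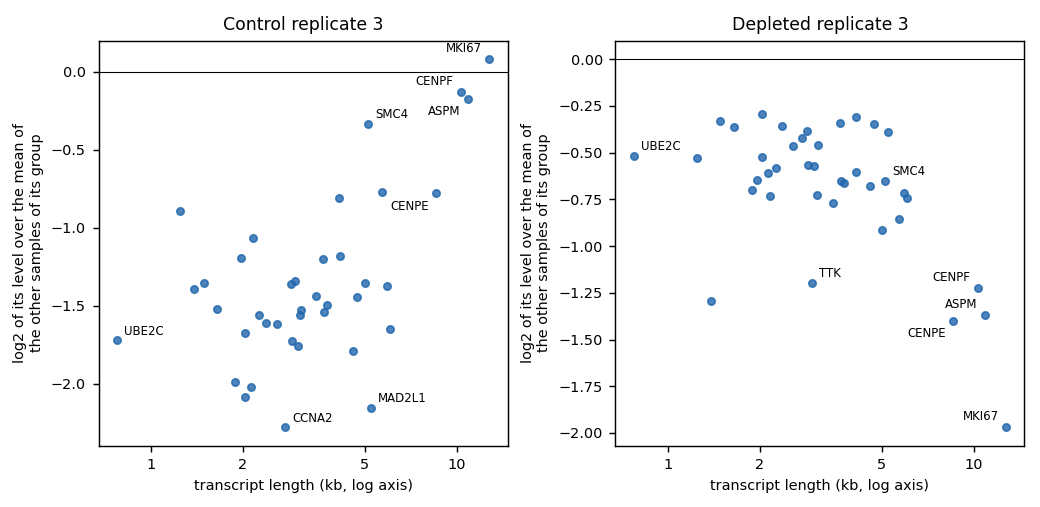
Each mitosis gene's level in control replicate 3 (left) and in depleted replicate 3 (right), as the log2 of its ratio to the mean of the other samples of the same group, against the length of its canonical transcript in kilobases (log axis). The 3 longest genes sit near 0 in control replicate 3, and MKI67, the longest, is lowest in depleted replicate 3. Spearman's correlation over the 39 genes is 0.40 on the left and -0.45 on the right, given as a description. Each ratio also depends on the length trend of the samples it is set against.

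Other genes of mitosis, 152 in 6 lists drawn up by function, were read beside the 39. In the mean 106 of the 152 were lower, the median log2 fold change was -0.32 (-0.61 without control replicate 3), and 1 was called lower and 1 higher, against 1.97% and 4.36% of all genes. The gene called lower was CEP152 (chr15:48712928-48811146), a scaffold of centriole duplication, with 554, 745 and 609.9 normalized counts in the controls and 288, 274 and 152 in the depleted samples. Its groups did not overlap and control replicate 3 was not apart, and the log2 fold change was -1.46 (standard error 0.35, adjusted p by limma = 0.0445), or -1.48 without that library. The gene called higher was KIF13A (chr6:17759183-17987635), a kinesin that carries endosomes and also serves abscission, with 436, 95.5 and 411 against 1772, 1842 and 1603 and a log2 fold change of 2.75 (standard error 0.55, adjusted p by limma = 0.0228), or 3.08 without control replicate 3.
Among 23 genes of G2 to M entry the median was -0.33, with 16 lower in the mean and 0 called, and without control replicate 3 it was -0.71 with 3 called lower (BORA, NEK2 and CKS2). The largest differences with all samples were BORA (-1.06), the activator of Aurora A toward PLK1, NEK2 (-1.01), a centrosome kinase, and CDC25B (-0.87), a phosphatase that activates CDK1. Among 39 genes of the centromere, kinetochore and checkpoint the median was -0.24 with 0 called, led by CENPH (-1.06), KNL1 (-0.98) and SGO2 (-0.88), and without control replicate 3 it was -0.73 with 2 called lower (CENPH and CENPW). The 40 spindle and centrosome genes had a median of -0.49 with CEP152 called, or -0.61 with 6 called lower without that library. For 15 condensin and cohesin genes the median was -0.39 with 0 called (NCAPG2 -1.29, STAG2 -0.83, SMC1A -0.72), or -0.61 with NCAPG2 called lower. The 14 genes listed under cytokinesis, not all of them particular to it, had a median of -0.25 with KIF13A called. Without control replicate 3 the median was -0.43, with ARHGAP11A called lower and PLK2 and KIF13A higher. The 21 genes of the anaphase-promoting complex and separase, most of them subunits expressed throughout the cell cycle, had a median of -0.07, led by ANAPC1 (-0.81), ESPL1 (-0.75) and CDC26 (-0.66), or -0.22 without control replicate 3, with 0 called in either fit. Without control replicate 3, 13 of the 152 were called lower, against 6.49% of all genes, and 2 were called higher. The counts per list in that fit are small and are to be read only beside that share. The share of all genes called higher in that fit is not given here. CKS2, CENPW, ARHGAP11A and PLK2 were named after their values were seen.

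DNA replication genes, the part of the cell cycle programme next to mitosis, gave a median log2 fold change of -0.01 over 40 genes, with 20 lower in the mean and 0 called. The largest differences were -0.94 for ORC1, 0.90 for TYMS and -0.79 for CDT1. Their median deviation was 1.03 in control replicate 2 and -1.16 in control replicate 3, a wider gap between controls than in the 39 mitosis genes (0.91 and -0.62). Without control replicate 3 the median log2 fold change was -0.62 with 3 called lower, against 6.49% of all genes. Whether mitosis and replication genes differ in their change was not tested.

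**Figure D5:**
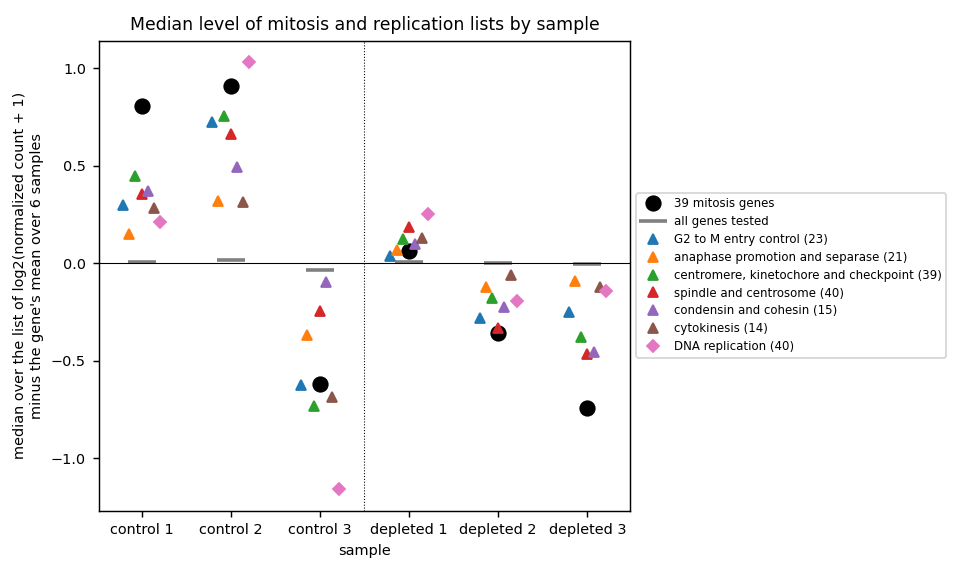
Median over each list of log2(normalized count + 1) minus the gene's mean, for each sample, with the number of genes tested in brackets; the grey bar is the median of all genes tested. The 39 mitosis genes sit at 0.81 and 0.91 in control replicates 1 and 2, at -0.62 in control replicate 3 and at 0.07, -0.36 and -0.74 in depleted replicates 1 to 3, and the DNA replication genes are lowest in control replicate 3.

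Markers of cell identity were read beside these values. The labels name the cells luminal ductal, and the 9 luminal markers measured of 11 listed summed to between 28579 and 85430 normalized counts in the controls and between 60467 and 113624 in the depleted samples, with control replicate 3 lowest. KRT7 made up most of that sum, 6 of the 9 were lower in the mean, and KRT19 was called lower (214, 111 and 124 in the controls and 30.2, 25.6 and 29.1 after depletion, log2 fold change -2.31). PGR and ELF5 were not analysed here. Basal markers, 7 of 7 measured, summed to between 61348 and 79853 in the controls and between 49079 and 160641 in the depleted samples, where KRT17 alone gave 123480 in depleted replicate 3. Of the 7, 5 were lower in the mean and TP63, a defining basal factor, was called lower (271, 359 and 1615 against 8.24, 64.9 and 42.5, log2 fold change -4.18), with control replicate 3 the highest sample. The 7 fibroblast markers summed to 451, 225 and 304 in control replicates 1 to 3 and to 33375, 14606 and 9950 in depleted replicates 1 to 3, and 6 of the 7 were called higher. Control replicate 3 was thus with its group in these genes, and depleted replicate 1, with the most mitotic mRNA of its group, also had the highest fibroblast sum. In some other markers control replicate 3 stood apart from control replicates 1 and 2. KRT7 (19463 against 57118 and 67336) and KRT8 (2442 against 8635 and 8570) were lower there. GATA3 (1013 against 282 and 231) and MUC1 (2690 against 1164 and 629) were higher there, whereas FOXA1 (180 against 184 and 285) was close to control replicate 1. These markers were picked after their values were seen. Depleted replicate 1 stood apart from depleted replicates 2 and 3 in other markers too. It was lower in KRT5 (562 against 10908 and 14997) and EPCAM (153 against 2281 and 2486). It was higher in PECAM1 (1582 against 110 and 157). These 3 were picked after their values were seen. PTPRC, the defining leukocyte gene, had at most 13.8 normalized counts and VWF of endothelium at most 13.4, while CD14 had between 72.8 and 882 and PECAM1 between 91.5 and 1582. Of the other endothelial markers, CDH5 was called higher (8.77, 4.10 and 4.92 against 25.6, 119 and 101, log2 fold change 3.37) and KDR, at 778, 32.2 and 66.9 against 0, 24.9 and 22.4, was not called (log2 fold change -3.83, adjusted p by limma = 0.193). The part of any of these in the mitosis values was not tested.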

How the data were processed

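Total RNA from MCF10A cells (stranded TruSeq libraries after ribosomal RNA removal, single-end reads of 100 bases) was measured in 3 control and 3 growth factor-depleted samples, grouped by their titles. The submitters' processing notes name cutadapt 1.6, TopHat2 0.6, HTSeq 0.6, DESeq2 1.8.1 and R 3.2.0, with hg38 and Gencode 22. The deposited values are a signal, read counts per gene that the authors divided by DESeq2 size factors, called normalized counts here. Multiplying back gave whole reads for 100% of values (tolerance 0.01), with 7472418 to 28672630 reads per sample, and at the shallowest a floor of 3 reads equals 6.71 normalized counts. The floor covers counting error only, whereas the intervals of fold changes are those of limma and come from the spread between samples.

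Gene symbols, coordinates and canonical transcript lengths came from Gencode 44 on hg38 by gene ID (18913 of 19198 IDs matched). Levels were log2(normalized count + 1), so fold changes of low genes are understated. The 16988 genes averaging 10 or more were fitted with limma 3.58.1 (R 4.3.3, trended variance, all 6 samples, condition only), two-sided, with Benjamini-Hochberg adjustment over all of them. Calls needed an adjusted p under 0.05 and a 2-fold change. Alternatives were other pseudocounts, filters and scalings, no trend, a replicate block, leaving out each sample, edgeR 4.0.16 and DESeq2 1.42.0 on the recovered reads, and, added after the data were seen, a length and GC correction. The fits were tested on simulated data, in which DESeq2 made a larger share of false calls than limma or edgeR. DESeq2 also recovered a larger share of the changes put in. Each gene was simulated on its own, so no simulated library differed from its group in many genes together.

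The mitosis genes and all lists were chosen with earlier results of these data known. Every mitosis gene is named. Values in each sample are given for 15 genes set by rule, and those of HMMR, CENPE, TTK, SMC4, ASPM and KIF23 were added after their values were seen. Of each other list, the called genes or, with none, the 3 with the largest change are named. Same-numbered samples did not deviate together (correlations -0.07, -0.28 and -0.32), so the numbers were not taken to pair samples.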

Additional observations from a re-analysis of the deposited data

How the results depend on the processing

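The median log2 fold change of the mitosis genes stayed between -1.16 and -0.48 under all 19 alternatives, and none were called higher in any of them. The count called lower was 0 except under DESeq2 (1), without control replicate 3 (19) and with the length and GC correction without control replicate 3 (17), so leaving out single samples gave 0 to 19. A replicate block gave 0 mitosis genes, 2 other mitosis genes and 967 of all genes, and changed the call of no mitosis gene. The 2 calls among other mitosis genes became 1 with the same total in every sample, 0 with no trend, 1 by edgeR, 6 by DESeq2, 15 with the correction without control replicate 3, and 0 to 15 without single samples (15 without control replicate 3). Over all genes 1076 were called, against 2112 by DESeq2, 2433 with the correction without control replicate 3, 705 with the correction and a replicate block, and 453 to 2474 without single samples (634, 675 and 2474 without control replicates 1, 2 and 3, and 453 and 467 without depleted replicates 2 and 3). With the same total in every sample 1076 of all genes were again called. The totals over all genes with no trend and by edgeR are not given here. For 35 of the mitosis genes no alternative turned the direction. Without single samples, the log2 fold change ran from -0.74 to 0.027 for KIF20A, from -0.67 to 0.054 for AURKB, from -1.08 to 0.049 for MKI67 and from -0.31 to 0.36 for KIF23, which was -0.17 with the correction without control replicate 3. The cause was not tested. With 3 samples a side and this spread among controls, a change that missed the threshold cannot be read as absent.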
